A study of Mus musculus with 6 samples.

Results

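The myeloid-type chemokines described here are the 7 genes Ccl3, Ccl4, Ccl6, Ccl9, Cxcl2, Ccl22 and Cxcl10, found by gene name among 28945 genes of the deposited table. They were chosen with their levels in both groups already known, so every DM against CONT value given for them is a description and no p-value is attached. The study sequenced total RNA of splenic CD4+ T cells in 6 mouse libraries, 3 labelled CONT and 3 labelled DM, which the series' design ties to C57BL/6J and to db/db mice. The db/db mouse carries a defect of the leptin receptor gene in every tissue and becomes obese and diabetic. Age, sex, the strain background of the db/db mice, the method of purification and whether a library is 1 animal were not given in the sources used here. Any p-value below measures only the spread between libraries, which may be technical. The series title names eldecalcitol, a vitamin D analogue, but none of the 6 libraries carries a label of that treatment.

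Chemokines are small secreted proteins that guide the migration of leukocytes by binding receptors coupled to G proteins. They are named by the spacing of their first cysteines, as CC or CXC chemokines. Macrophages, monocytes, neutrophils and dendritic cells are well known sources of the 7 genes described here, and activated T cells and natural killer cells also make Ccl3 and Ccl4. In bulk RNA, fewer cells of a type and less RNA per cell cannot be told apart, and the cell that made a transcript is not recorded.

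Levels are in FPKM, fragments scaled to transcript length and to the fragments mapped in the library, so that genes of different length can be set side by side. The FPKM of all genes summed to between 248070 and 410282 per library, and relative depth ran from 0.798 to 1.11. CONT replicate 1 had the lowest mean correlation with its own group (0.878, against 0.915 to 0.949 in the others). DM replicate 3 stood apart by its B cell markers, whose summed level was 379 FPKM there and at most 26.8 FPKM in the other libraries. The markers of the labelled cell type were present in all 6 libraries: 15 CD4 T cell identity genes summed to 1757 to 2108 FPKM in CONT and 1019 to 1566 FPKM in DM, and none of the 15 was listed at 0 in any library. Their median log2 difference was -0.74, with 0 called by limma and 7 at an unadjusted p below 0.05. Of all genes fitted, 1.52% were called and 16% were below that unadjusted p.

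In CONT the 7 chemokines averaged about 1 FPKM or less, and in DM their means were spread more widely, with overlapping ranges. The CONT means ran from 0.117 FPKM for Ccl22 to 1.08 FPKM for Cxcl10, and each gene's range overlapped that of its neighbour in the order. In DM the means were 22.9 FPKM for Ccl6, 10.7 for Ccl3, 8.62 for Ccl9, 2.72 for Ccl4, 2.57 for Cxcl2, 2.12 for Cxcl10 and 0.238 for Ccl22. The DM ranges of Ccl6, Ccl3 and Ccl9 overlapped from one to the next, as did those of Ccl4, Cxcl2 and Cxcl10. The lowest DM value of Ccl9 (4.54 FPKM) lay above the highest of Ccl4 (3.48 FPKM) but below the highest of Cxcl2 (4.91 FPKM). Ccl22 lay below all the others.

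**Figure D1:**
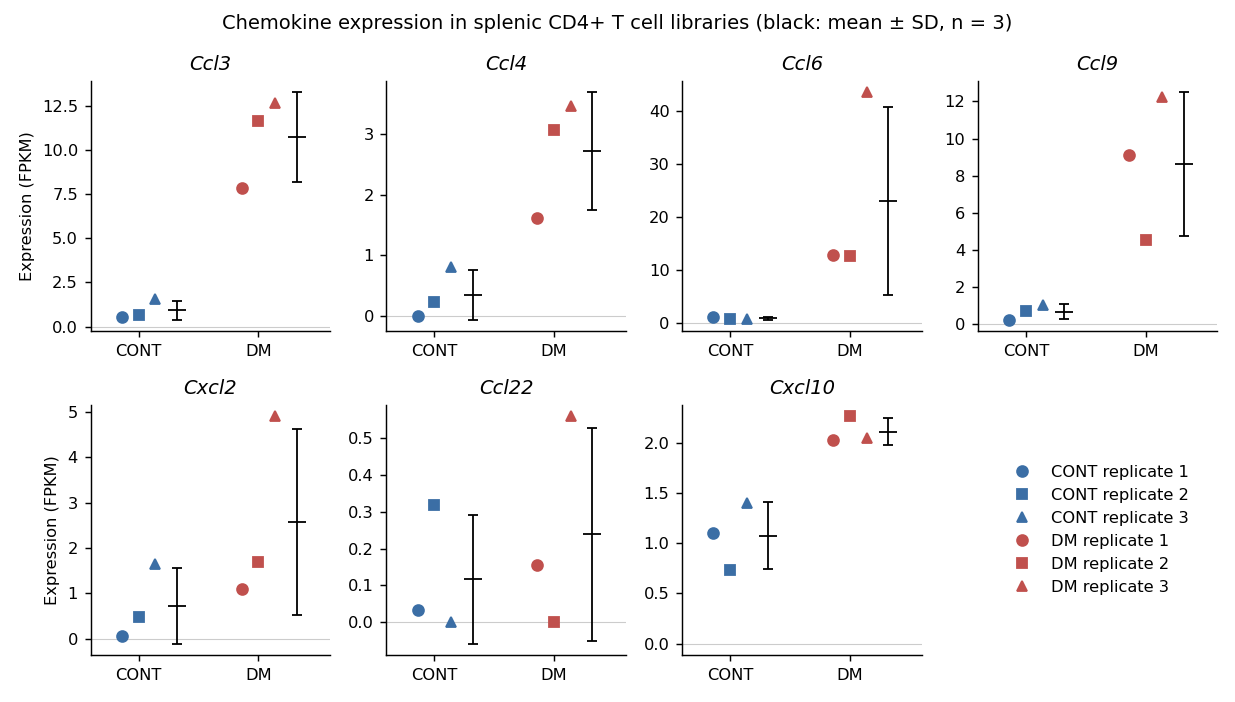
FPKM of each of the 7 chemokines (vertical axes, each on its own linear scale) in the 3 CONT and 3 DM libraries, with the mean and SD of each group in black. In 5 of the 7 panels every DM library lies above every CONT library; Cxcl2 and Ccl22 overlap.

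Ccl3 and Ccl4, also called macrophage inflammatory proteins 1-alpha and 1-beta, are CC chemokines that attract monocytes and lymphocytes, and Ccl3 signals through Ccr1 among other receptors. Ccl3 (ENSMUSG00000000982; chr11:83647844-83649355, minus strand) was at 0.551, 0.669 and 1.54 FPKM across CONT replicates 1, 2 and 3, against 7.85, 11.6 and 12.7 FPKM across DM replicates 1, 2 and 3. The lowest DM library was thus well above the highest CONT library. Its mean was 0.919 ± 0.538 FPKM across CONT, against 10.7 ± 2.54 FPKM across DM (SD, n = 3), and the difference was 2.62 ± 0.27 (SE) on the log2(FPKM + 1) scale. Among the 7 genes, Ccl3 combined a large difference with a narrow spread in DM, where its highest library was 1.62 times its lowest.

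Ccl4 (ENSMUSG00000018930; chr11:83662584-83664683, plus strand) was listed at 0 in CONT replicate 1, was at 0.232 and 0.807 FPKM in CONT replicates 2 and 3, and was at 1.62, 3.06 and 3.48 FPKM in DM. The libraries kept the order they had for Ccl3, lowest in replicate 1 and highest in replicate 3 of each group, without overlap between groups. Its log2 difference was 1.47 ± 0.32 (SE). Ccl3 exceeded Ccl4 in every library: the ratio of their FPKM was 4.84, 3.79 and 3.65 in DM, and 2.88 and 1.904 in CONT replicates 2 and 3.

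Ccl6 and Ccl9 are CC chemokines described in rodents that signal through Ccr1; Ccl9 is known as a product of macrophages and osteoclasts. Ccl6 (ENSMUSG00000018927; chr11:83587882-83593087, minus strand) was at 1.15, 0.650 and 0.693 FPKM across CONT, against 12.8, 12.6 and 43.5 FPKM across DM replicates 1, 2 and 3. DM replicate 3 was 3.43 times the mean of the other DM libraries, while the 3 CONT libraries lay close together. The ratio of group means was 27.6, and the log2 difference was 3.48 ± 0.46 (SE), or 2.91 without DM replicate 3.

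Ccl9 (ENSMUSG00000019122; chr11:83572919-83578636, minus strand) was at 0.241, 0.734 and 1.04 FPKM across CONT, against 9.11, 4.54 and 12.2 FPKM across DM. Here DM replicate 2 was the lowest DM library, and it still lay above every CONT library. The log2 difference was 2.46 ± 0.36 (SE). The ratio of Ccl6 to Ccl9 varied between libraries, at 1.40, 2.78 and 3.56 in DM and 4.78, 0.885 and 0.665 in CONT, so that the 2 genes did not keep a fixed proportion even within a group.

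Cxcl2, a CXC chemokine that attracts neutrophils through Cxcr2, did not separate the groups. Cxcl2 (ENSMUSG00000058427; chr5:90903871-90905938, plus strand) was at 0.0525, 0.469 and 1.66 FPKM across CONT, against 1.11, 1.70 and 4.91 FPKM across DM. CONT replicate 3 lay above DM replicate 1 and close to DM replicate 2. The log2 difference was 1.01 ± 0.48 (SE), and without DM replicate 3 it was 0.57.

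Cxcl10, a CXC chemokine induced by interferons that attracts T cells through Cxcr3, had a small and even difference. Cxcl10 (ENSMUSG00000034855; chr5:92346638-92348889, minus strand) was at 1.10, 0.732 and 1.40 FPKM across CONT, against 2.03, 2.27 and 2.05 FPKM across DM. The DM libraries lay within 1.12 times of each other and above the CONT libraries, and the ratio of group means was 1.96. The log2 difference was 0.60 ± 0.21 (SE), and 0.38 when every library was scaled to the same summed FPKM.

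Ccl22, a CC chemokine of dendritic cells and macrophages that attracts regulatory T cells through Ccr4, was close to undetected. Ccl22 (ENSMUSG00000031779; chr8:94745590-94751699, plus strand) was at 0.0330 and 0.317 FPKM in CONT replicates 1 and 2 and listed at 0 in CONT replicate 3. In DM it was at 0.156 FPKM in replicate 1, listed at 0 in replicate 2 and at 0.559 FPKM in replicate 3. It stayed below the mean of 1 FPKM in a group that a gene needed to enter the fit, so 6 of the 7 members were fitted.

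Fitted with limma over 13106 genes, 3 of the 6 members (Ccl3, Ccl6 and Ccl9) were past a Benjamini-Hochberg adjusted p of 0.05 and higher in DM, where 1.27% of all genes fitted were higher and 0.252% lower. All 3 DM libraries lay above all 3 CONT libraries for 5 members, where 13.8% of genes fitted did. Nothing is read from these counts, because the genes were chosen on the same values. Without CONT replicate 3 or without DM replicate 1 only Ccl3 was past that threshold, without DM replicate 3 Ccl3 and Ccl6 were, and with no filter on low values none was. In the authors' deposited table, whose test is not named, Ccl3, Ccl4, Ccl6 and Ccl9 were flagged, where 7.85% of all genes were flagged as higher in DM. Their flag is not an adjusted threshold of 0.05, because Ccl4 was flagged with a q-value above 0.05.

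Within each group the genes did not follow 1 common order of libraries. Ccl3, Ccl4 and Cxcl2 were lowest in replicate 1 and highest in replicate 3 of both groups; the replicate numbers carry no order or shared origin in the labels. Ccl9 was likewise highest in replicate 3 of each group, but its lowest DM library was replicate 2. Ccl6 departed from these in CONT, where replicate 1 was its highest library, and Cxcl10 was nearly level over DM.

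**Figure D2:**
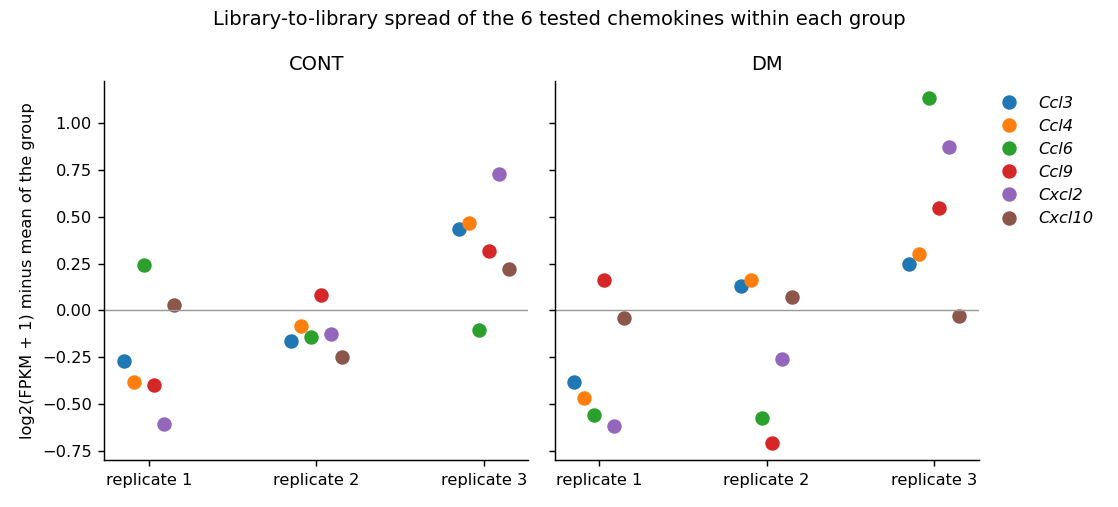
Distance of each library from the mean of its own group on the log2(FPKM + 1) scale (vertical axis) for the 6 fitted chemokines (colours), with CONT on the left and DM on the right. DM replicate 3 is high for Ccl6 (1.13) and Cxcl2 (0.87), and Cxcl10 stays within 0.07 of its mean in DM.

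Set against all other chemokine ligands, the 7 genes made up a larger share of ligand expression in DM. Their summed level was 3.13, 3.80 and 7.14 FPKM in CONT and 34.6, 35.8 and 79.4 FPKM in DM. The 31 other ligand genes of the table summed to 25.9, 27.3 and 42.4 FPKM in CONT and 42.6, 45.7 and 94.5 FPKM in DM. The 7 genes therefore held 10.8%, 12.2% and 14.4% of ligand FPKM in CONT and 44.9%, 43.9% and 45.7% in DM. This share does not depend on how libraries are scaled to each other. It was even across DM although the sums of DM replicate 3 were near those of the other DM libraries added together. The 7 genes were chosen with their DM levels known, so nothing is read from their larger share. Of the sum of the other ligands, Ccl5 made up 18.9, 15.2 and 23.4 FPKM in CONT and 18.9, 18.1 and 68.4 FPKM in DM.

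Promoter sequences, from 250 bases before to 50 bases after the gene start, were matched in RefSeq (GRCm38.p6) for 6 of the 7 members. Ccl3, Ccl6, Ccl9, Cxcl2 and Cxcl10 are shown because they were the fitted members with a sequence, and because genes with a large and a small difference can be compared by eye. Capitals mark matches, on either strand, to GGG and TTCC with any 3 bases between them (a kappaB element, bound by NF-kB), GAAA and GAAA with any 2 bases between them (the core of the interferon-stimulated response element), TGANTCA (AP-1), TATAAA (the TATA box) and GGAAGT (an ETS core). These motifs were picked after the sequences were seen.
Ccl3, chr11:83649329-83649628, minus strand: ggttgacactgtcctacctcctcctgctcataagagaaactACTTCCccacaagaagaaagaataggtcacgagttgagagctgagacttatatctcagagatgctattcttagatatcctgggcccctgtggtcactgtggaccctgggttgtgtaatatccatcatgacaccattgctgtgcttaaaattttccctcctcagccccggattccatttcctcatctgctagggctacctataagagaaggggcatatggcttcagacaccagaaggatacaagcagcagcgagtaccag
Ccl6, chr11:83593038-83593337, minus strand: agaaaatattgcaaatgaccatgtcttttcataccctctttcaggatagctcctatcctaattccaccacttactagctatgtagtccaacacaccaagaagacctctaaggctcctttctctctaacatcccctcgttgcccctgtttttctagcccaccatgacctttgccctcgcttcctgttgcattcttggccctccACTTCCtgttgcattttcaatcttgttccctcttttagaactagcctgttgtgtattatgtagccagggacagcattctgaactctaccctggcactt
Ccl9, chr11:83578587-83578886, minus strand: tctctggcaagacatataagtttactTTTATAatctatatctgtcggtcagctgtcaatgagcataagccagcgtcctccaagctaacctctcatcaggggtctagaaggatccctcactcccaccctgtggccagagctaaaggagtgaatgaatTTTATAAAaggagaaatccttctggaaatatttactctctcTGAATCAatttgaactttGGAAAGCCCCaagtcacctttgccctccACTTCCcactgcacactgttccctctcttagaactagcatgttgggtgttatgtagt
Cxcl2, chr5:90903649-90903948, plus strand: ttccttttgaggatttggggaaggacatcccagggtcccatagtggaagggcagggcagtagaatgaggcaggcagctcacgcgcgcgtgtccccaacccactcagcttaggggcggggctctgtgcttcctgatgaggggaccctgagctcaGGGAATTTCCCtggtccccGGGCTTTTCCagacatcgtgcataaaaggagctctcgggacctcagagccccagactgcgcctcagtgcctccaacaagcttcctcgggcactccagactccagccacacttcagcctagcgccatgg
Cxcl10, chr5:92348840-92349139, minus strand: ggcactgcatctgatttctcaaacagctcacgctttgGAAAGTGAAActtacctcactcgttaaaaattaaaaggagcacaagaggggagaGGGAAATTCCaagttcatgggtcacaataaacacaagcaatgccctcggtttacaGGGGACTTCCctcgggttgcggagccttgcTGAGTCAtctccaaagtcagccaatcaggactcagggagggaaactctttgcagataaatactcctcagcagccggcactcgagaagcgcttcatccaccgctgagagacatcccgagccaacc

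Cxcl10 carried 2 kappaB matches, 159 and 104 bases before the start, with GAAAGTGAAA as the response element core at 213 bases and TGAGTCA at 74 bases before the start. Cxcl2 carried kappaB matches at 97 and 78 bases before the start; the first, GGGAATTTCC, overlaps a match on the opposite strand. Ccl9 carried a kappaB match on the opposite strand at 35 bases, TGAATCA at 53 bases, an ETS core at 7 bases, and TATA matches at 224, 94 and 92 bases before the start, the last of these overlapping. Ccl3 and Ccl6 held only the ETS core, at 209 and 48 bases before the start, which in Cxcl10 lies inside the nearer kappaB match. Over 32851 promoters of the same length, 5.56% held the kappaB letters, 3.44% the response element core, 7.81% AP-1, 13.6% TATAAA and 23.8% the ETS core. The kappaB letters were thus found in Ccl9, Cxcl2 and Cxcl10 and not in these windows of Ccl3 and Ccl6. A match describes the letters and is not a site shown to be bound.

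The neighbouring genes Ccl6 and Ccl9 shared a run of 13 identical bases, gccctccacttcc, which begins 55 bases before the start of Ccl6 and 14 before that of Ccl9. In the other 14 pairs of the 6 promoters the longest shared run was 7 to 10 bases. In Ccl6 and Ccl9 this run ends in the ETS core.

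Ccl9, Ccl6, Ccl3 and Ccl4 lie near each other in the CC chemokine cluster of chromosome 11, and their close neighbours were examined for whether the whole interval was higher in DM. Of 31 other genes within 100 kb of any member, 14 were fitted. None was called in either direction (limma, Benjamini-Hochberg over all genes), where 1.52% of all genes were. At an unadjusted p below 0.05, as for 16% of all genes fitted, there was 1, Naaa, a lysosomal amidase gene beside Cxcl10. Their median log2 difference was 0.58 over the 5 fitted on chromosome 11, 0.08 on chromosome 5 and 0.02 on chromosome 8, beside -0.01 for all genes fitted. Taf15, an RNA-binding protein gene at the Ccl9 end, was at 35.8, 35.6 and 33.3 FPKM across CONT, against 30.7, 30.0 and 32.8 FPKM across DM, all slightly below CONT. Of the 5 fitted neighbours on chromosome 11, 3 had a difference above 0. Wfdc17, a small secreted protein gene beyond Ccl4, was at 0, 0.257 and 0.643 FPKM across CONT, against 1.21, 0.928 and 9.76 FPKM across DM. Its log2 difference of 1.49 ± 0.64 (SE) did not pass the test (limma adjusted p = 0.312, Benjamini-Hochberg).

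**Figure D3:**
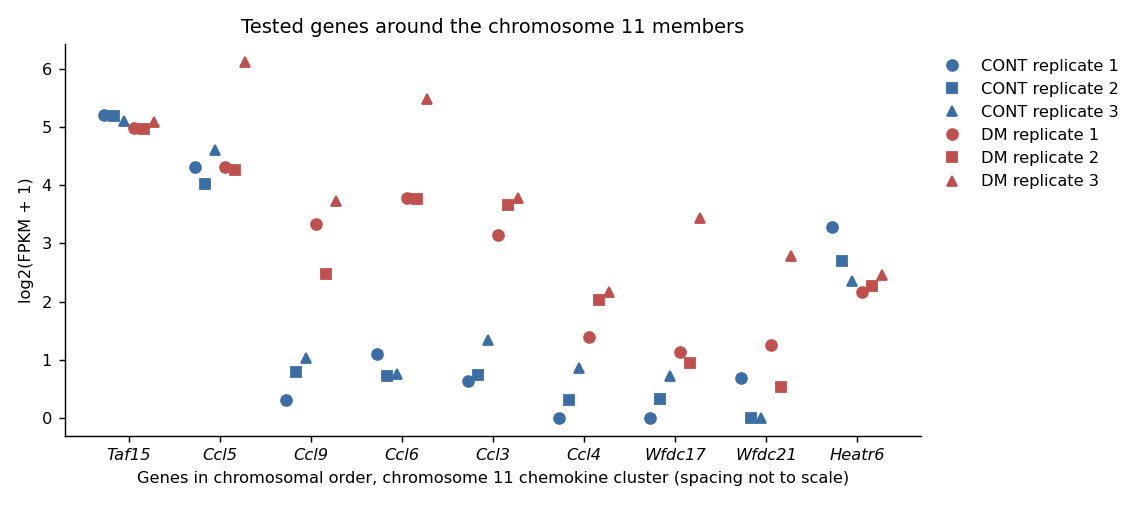
log2(FPKM + 1) per library (vertical axis) for the fitted genes of the chromosome 11 cluster and their neighbours, in chromosomal order along the horizontal axis. Ccl9, Ccl6, Ccl3 and Ccl4 separate the groups, while Taf15 lies near 5 in all 6 libraries and Ccl5 is high in DM replicate 3 only.

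Overlapping genes limit 2 of the members. The noncoding gene E230016K23Rik overlaps Ccl6 on the other strand and was listed at 0 in every CONT library, against 0.210, 0.159 and 0.273 FPKM across DM. Art3 overlaps Cxcl10 on the other strand and averaged 0.290 FPKM in CONT and 0.359 FPKM in DM. How strand was treated in counting was not given in the sources used here; reads of the overlapping stretches cannot be told apart.

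No other chemokine ligand passed the test. Of 34 other ligand genes listed, 31 were in the table and 10 were fitted; 0 were called with limma after Benjamini-Hochberg adjustment and 5 had an unadjusted p below 0.05, all higher in DM, where 9.77% of genes fitted were. Their median log2 difference was 0.82 and 9 of the 10 were above 0, beside a median of -0.01 for all genes fitted. Ccl5, a chemokine of effector T cells and natural killer cells and the most abundant ligand, was at 18.9, 15.2 and 23.4 FPKM across CONT, against 18.9, 18.1 and 68.4 FPKM across DM. Only DM replicate 3 was high, and without it the log2 difference went from 0.58 to -0.03. Xcl1, a lymphocyte chemokine, was at 1.25, 6.82 and 8.08 FPKM across CONT, against 4.40, 7.64 and 6.16 FPKM across DM, and turned from 0.36 to -0.28 without CONT replicate 1. Ccl12, a Ccr2 ligand of macrophages, was at 0, 0.745 and 1.898 FPKM across CONT, against 2.26, 3.49 and 2.31 FPKM across DM (log2 difference 1.09 ± 0.39 SE; limma adjusted p = 0.267, Benjamini-Hochberg). Pf4, the platelet chemokine, was at 1.26, 0.163 and 0.920 FPKM across CONT, against 4.58, 1.83 and 1.87 FPKM across DM (limma adjusted p = 0.257, Benjamini-Hochberg).

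**Figure D4:**
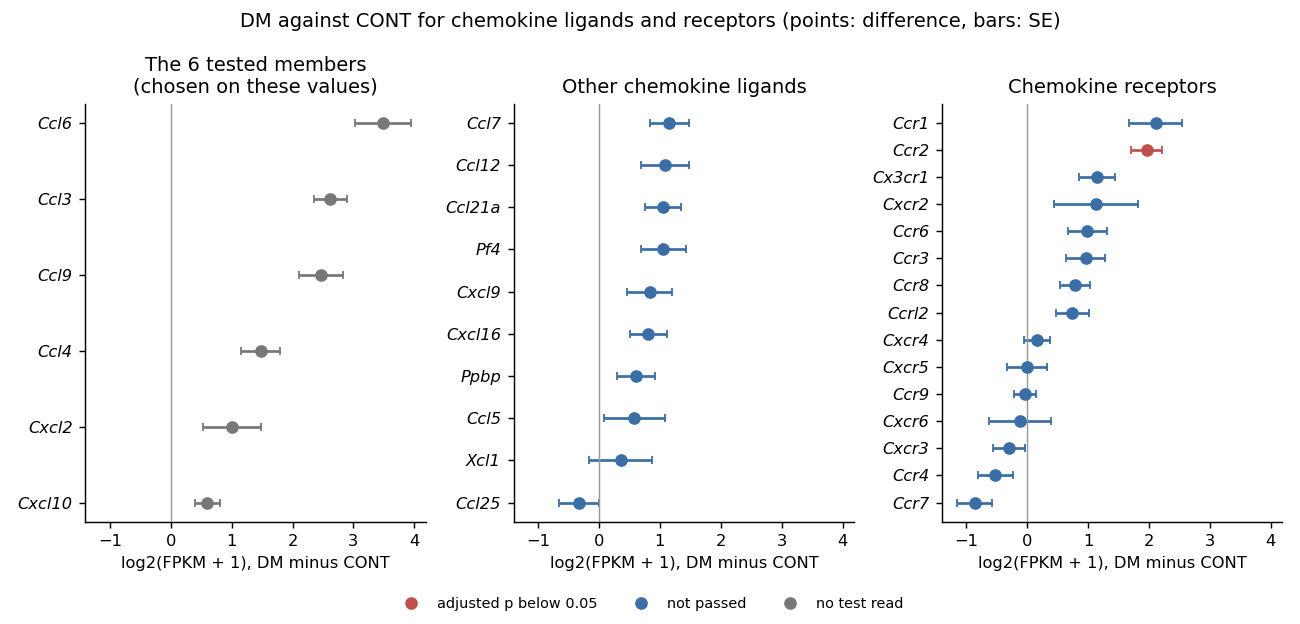
Difference of DM minus CONT on the log2(FPKM + 1) scale (horizontal axis), with its SE as a bar, for the 6 fitted members, 10 other ligands and 15 receptors. Red marks the gene past the threshold, Ccr2; the members are grey because no test is read for them.

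Of 4 receptors of the 7 chemokines described here, Ccr1, Cxcr2, Cxcr3 and Ccr4, none passed the test over all genes (limma, Benjamini-Hochberg). An unadjusted p below 0.05 was found for 1, Ccr1, and for 16% of all genes fitted. Ccr1, the receptor of Ccl3, Ccl6 and Ccl9 on myeloid cells, was at 0.366, 0.360 and 0.597 FPKM across CONT, against 5.69, 2.19 and 10.1 FPKM across DM. The groups did not overlap, as for 13.8% of genes fitted, and the log2 difference of 2.11 ± 0.43 (SE) missed the threshold (limma adjusted p = 0.0704, Benjamini-Hochberg). It passed with a pseudocount of 0.1 (limma adjusted p = 0.0395), with a replicate block (0.0456) and without DM replicate 2 (0.0292), within a range of limma adjusted p up to 0.245 over its alternatives.

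The receptors of the CXC members and of Ccl22 showed no such separation. Cxcr2, the neutrophil receptor of Cxcl2, was at 0.564, 0.0452 and 0.0662 FPKM across CONT, against 0.410, 0.474 and 7.85 FPKM across DM, high in DM replicate 3 alone. Cxcr3, the T cell receptor for Cxcl10, was the most abundant of the 4, at 37.0, 25.6 and 32.2 FPKM across CONT, against 24.3, 19.3 and 33.9 FPKM across DM, with overlapping groups. Ccr4, the Ccl22 receptor of helper and regulatory T cells, was at 5.51, 6.08 and 3.28 FPKM across CONT, against 2.58, 4.48 and 2.40 FPKM across DM, also overlapping.

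Among 11 other fitted chemokine receptors, 1 rose and 0 fell (limma, Benjamini-Hochberg), where 1.27% and 0.252% of all genes fitted did. At an unadjusted p below 0.05 there were 7, where 16% of all genes fitted were. Of these, 6 were higher in DM, where 9.77% of all genes fitted were. Ccr2, the monocyte receptor that activated T cells also carry, went from 3.65, 5.71 and 4.29 FPKM in CONT to 20.0, 15.1 and 27.7 FPKM in DM. Its log2 difference was 1.96 ± 0.26 (SE; limma adjusted p = 0.0206, Benjamini-Hochberg), and it did not pass without CONT replicate 3 (0.0693), DM replicate 1 (0.093) or DM replicate 3 (0.0626), or with no filter on low values (0.0906). The lymph node homing receptor Ccr7 was at 129, 107 and 108 FPKM across CONT, against 45.7, 81.9 and 64.7 FPKM across DM, below CONT in every DM library but not past the test (limma adjusted p = 0.234, Benjamini-Hochberg). Cxcr4, Cxcr5 and Cxcr6, which guide homing, B cell follicle entry and tissue residence, had log2 differences of 0.16, 0.00 and -0.12, and each changed sign in at least 1 alternative.

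Genes known to be induced together with individual members were examined list by list. Among 12 fitted inflammatory genes of activated myeloid cells, none was called and 5 had an unadjusted p below 0.05 (limma). All 5 were higher in DM, where 9.77% of all genes fitted were at that p. The median log2 difference was 0.55 and 11 of the 12 were above 0. Il1b, an inflammatory cytokine gene picked after its values were seen, was at 1.52, 1.05 and 3.40 FPKM across CONT, against 3.99, 5.72 and 29.6 FPKM across DM (limma adjusted p = 0.27, Benjamini-Hochberg), with no overlap between groups. Their most abundant genes were the NF-kB inhibitor Nfkbia, at 39.5, 41.5 and 44.3 FPKM across CONT, against 29.4, 79.9 and 55.1 FPKM across DM, and the ubiquitin-editing enzyme Tnfaip3, at 12.6, 11.1 and 8.90 FPKM across CONT, against 5.74, 42.5 and 13.6 FPKM across DM. Both were high in DM replicate 2, in which Ccl9 was at its DM lowest. Without that library the log2 difference of Nfkbia went from 0.28 to -0.05 and that of Tnfaip3 from 0.46 to -0.25; that of Nfkbia was -0.07 with total scaling.

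The 16 interferon-induced genes listed as partners of Cxcl10 had a median log2 difference of -0.37, with 4 above 0, while Cxcl10 itself was higher in every DM library. Only 1 was called, the guanylate-binding protein gene Gbp3, which rose from 9.90, 10.0 and 12.1 FPKM to 59.2, 57.4 and 57.1 FPKM (log2 difference 2.34 ± 0.18 SE; limma adjusted p = 0.00315, Benjamini-Hochberg). Of the 16, 5 had an unadjusted p below 0.05 (limma), 1 of them higher in DM, where 16% of all genes fitted did. Gbp5 (-0.84), Oas2 (-1.26), Ifit1 (-0.64) and Usp18 (-0.46) were lower. In these 4 every DM library lay below every CONT library, as for 13.2% of genes fitted. The transcription factor gene Irf1 averaged 43.3 ± 3.15 FPKM across CONT, against 40.8 ± 9.31 FPKM across DM (SD, n = 3), with overlapping groups. It turned from -0.11 to 0.07 without DM replicate 1. Of the 7 fitted partners of Ccl22 from mature dendritic cells, none was called (limma). At an unadjusted p below 0.05 there were 2, where 16% of all genes fitted were. All 7 partners were above 0, with a median of 0.65. Of these, the maturation marker Cd83 was at 5.94, 5.65 and 9.59 FPKM across CONT, against 9.61, 10.9 and 20.3 FPKM across DM, and Tmem123 averaged 82.5 ± 17.1 and 101 ± 15.9 FPKM (SD, n = 3).

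Among 11 fitted cytotoxic and effector genes that T and natural killer cells express with Ccl3 and Ccl4, 1 rose, where 1.27% of all genes did. Of the 11, 7 were above 0, with a median log2 difference of 0.52. An unadjusted p below 0.05 (limma) was found for 4, all higher in DM, where 9.77% of all genes fitted were. All DM libraries lay above all CONT libraries for 4 of the 11, where 13.8% of genes fitted did. The perforin gene Prf1 (-0.52), the transcription factor genes Eomes (-0.37) and Tbx21 (-0.34) and the checkpoint receptor gene Lag3 (-0.30) were the 4 below 0, and none of these 4 passed the test. Gzmb, which encodes the protease granzyme B, was at 7.13, 4.16 and 3.79 FPKM across CONT, against 20.1, 14.7 and 25.5 FPKM across DM (log2 difference 1.82 ± 0.28 SE; limma adjusted p = 0.0335, Benjamini-Hochberg). It missed the threshold without any single library other than CONT replicate 1, at limma adjusted p of 0.0504 to 0.139, and also missed it with total scaling (0.129) or no filter on low values (0.126). The cytotoxic granule gene Nkg7 overlapped between groups, at 16.5, 21.8 and 24.7 FPKM across CONT, against 34.3, 20.9 and 50.8 FPKM across DM. Gzma, for granzyme A, was at 2.79, 3.02 and 2.45 FPKM across CONT, against 20.9, 14.3 and 154 FPKM across DM (limma adjusted p = 0.111), and passed without DM replicate 3 (0.0342).

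Summed markers of macrophages and monocytes were higher in each DM library than in any CONT library, as the chemokine sum was. Over CONT replicates 1, 2 and 3 the marker sum was 45.6, 74.0 and 125 FPKM. The chemokine sum had the same order there, at 3.13, 3.80 and 7.14 FPKM. Both sums were highest in DM replicate 3, but they differed in the order of DM replicates 1 and 2. The summed level of 19 macrophage and monocyte markers was 45.6 to 125 FPKM in CONT and 365 to 1316 FPKM in DM; 1 of the 19, Ms4a7, was listed at 0 in a library. Between DM replicates 1 and 2 the marker sum went from 667 to 365 FPKM, while the chemokine sum went from 34.6 to 35.8 FPKM. That drop lay mainly in the 2 most abundant markers, Lyz2 (349 to 170 FPKM) and Ly6c2 (180 to 44.5 FPKM). A few others, such as Mpeg1 (30.8 to 22.4 FPKM), were also lower in DM replicate 2, but most of the list was somewhat higher there. Of the 18 fitted, 3 rose, where 1.27% of all genes did, and 17 had an unadjusted p below 0.05 (limma), where 16% did. The median log2 difference of the 18 was 1.92. Lyz2, macrophage lysozyme, went from 14.9, 19.3 and 29.6 FPKM to 349, 170 and 845 FPKM (limma adjusted p = 0.0238, Benjamini-Hochberg), and the pore-forming Mpeg1 from 4.51 ± 1.79 to 38.1 ± 20.4 FPKM (SD, n = 3; limma adjusted p = 0.0253). The Fc receptor gene Fcgr3 was the third (2.56 ± 0.42 SE; limma adjusted p = 0.0379, and up to 0.156 when any library but DM replicate 2 was left out). Lyz2 did not pass without CONT replicate 3 (0.0578) or DM replicate 1 (0.0999), and Mpeg1 not without CONT replicate 2 (0.0549) or DM replicates 1 (0.101) or 3 (0.0506). With no filter on low values Lyz2, Mpeg1 and Fcgr3 missed the threshold (limma adjusted p of 0.108, 0.112 and 0.137), and Fcgr3 also with median-of-ratios scaling (0.0537). Their part in the chemokine levels was not tested.

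Other marker sums moved with the groups to different degrees. Neutrophil markers summed to 136, 56.2 and 36.1 FPKM in CONT, opposite in order to the chemokine sum there, and to 268 to 1522 FPKM in DM over 16 genes, of which Chil3 was the only one called, and Ly6g and Stfa2l1 were listed at 0 in some libraries. The 16 genes did not share 1 order. S100a9 was at 48.2, 7.80 and 4.33 FPKM across CONT and 79.2, 65.9 and 799 FPKM across DM. Mpo was at 5.63, 25.9 and 15.7 FPKM across CONT and 205, 79.0 and 43.0 FPKM across DM. Basophil and mast cell markers summed to 4.82 to 11.2 FPKM in CONT and 73.9 to 340 FPKM in DM over 9 genes, with Mcpt8, Prss34, Cpa3 and Fcer1a called. Dendritic cell markers summed to 3.43 to 4.23 FPKM and 13.0 to 32.2 FPKM over 10 genes, with Cd209a called, and plasma cell markers to 42.6 to 132 FPKM and 275 to 513 FPKM over 8 genes, with Tnfrsf17 called. The basophil genes Fcer1a, Cyp11a1 and Tpsb2 and the dendritic cell genes Batf3 and Clec10a were listed at 0 in some libraries. An unadjusted p below 0.05 (limma) was found for 8 of 16 fitted neutrophil, 6 of 7 basophil, 6 of 7 dendritic and 6 of 8 plasma cell genes. All of these were higher in DM, where 9.77% of all genes fitted were. B cell and natural killer cell markers overlapped between groups, and summed to 379 and 193 FPKM in DM replicate 3. Gzma, also listed with the effector T cell genes, made up 154 of these 193 FPKM. Of the fitted B cell and natural killer cell genes 0 of 11 and 0 of 6 were called (limma), with 0 and 1 at an unadjusted p below 0.05. Over all genes fitted, 1.52% were called and 16% were below that unadjusted p. Of the 7 genes called in these lists, Mcpt8 also passed without any single library (limma adjusted p up to 0.0382). Cd209a was lost without DM replicate 1, Cpa3 without DM replicates 1 or 2, Fcer1a without CONT replicate 3 or DM replicates 1 or 2, and Prss34 without CONT replicates 1 or 3 or DM replicates 1 or 2. Chil3 was lost without CONT replicates 2 or 3 or DM replicates 1 or 3, and Tnfrsf17 when any library but DM replicate 2 was left out. With no filter on low values all of the 7 but Cd209a missed the threshold (Mcpt8 at limma adjusted p = 0.0608, the others at 0.112 to 0.152); Chil3 also did so with median-of-ratios (0.0506) or total scaling (0.0512), and Tnfrsf17 with total scaling (0.0531). Among the DM libraries the chemokine sum was highest in replicate 3. So were the macrophage, neutrophil, dendritic, plasma, B and natural killer cell sums, whereas the basophil sum was lowest there. The part of these cells in the chemokine levels was not tested.

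**Figure D5:**
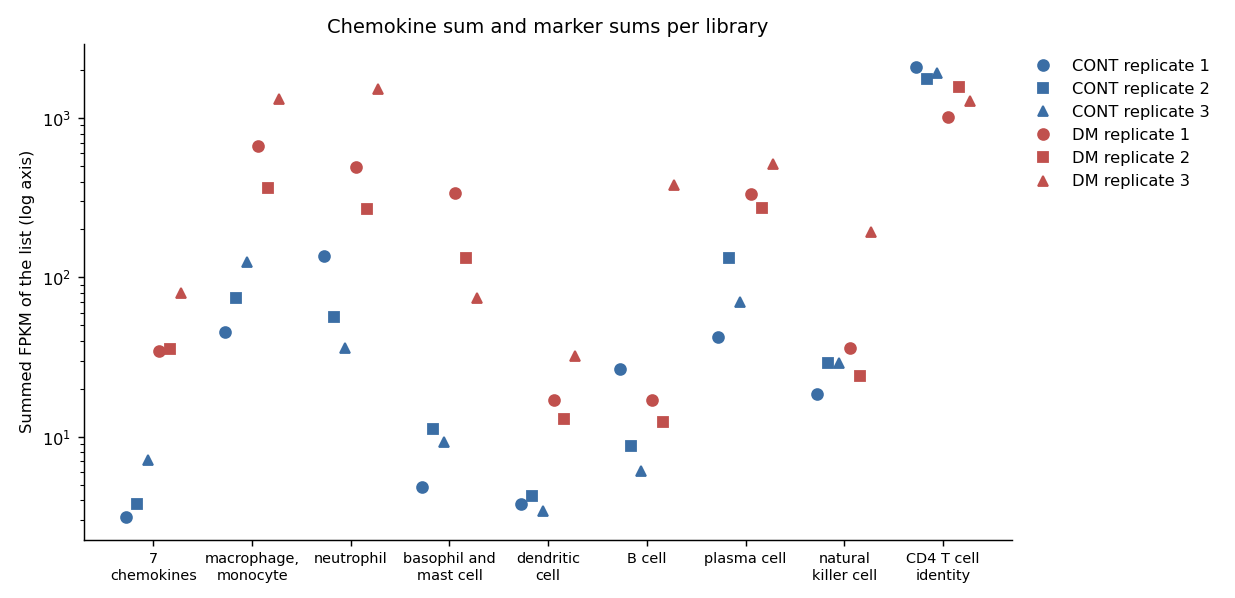
Summed FPKM (vertical log axis) of the 7 chemokines and of each marker list in the 6 libraries. The macrophage and monocyte, neutrophil, basophil, dendritic and plasma cell sums separate the groups, as the chemokine sum does, and the CD4 T cell sum is lower in each DM library than in any CONT library.

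Levels were also set against Lyz2, a reference chosen after its values were seen. Per 100 FPKM of Lyz2, Ccl6 stood at 7.74, 3.37 and 2.34 FPKM in CONT, against 3.66, 7.41 and 5.14 FPKM over DM. Ccl3 stood at 3.71, 3.47 and 5.19 FPKM in CONT, against 2.25, 6.84 and 1.501 FPKM over DM, and Ccl9 at 1.62, 3.81 and 3.52 FPKM, against 2.61, 2.67 and 1.44 FPKM. The groups overlapped for these 3 genes, but the ratios also varied within a group: that of Ccl3 was 6.84 in DM replicate 2 and 1.501 in DM replicate 3. Ccl4 stood at 0, 1.20 and 2.72 FPKM in CONT, against 0.465, 1.80 and 0.411 FPKM over DM, and Cxcl2 at 0.353, 2.43 and 5.60 FPKM, against 0.317, 0.999 and 0.581 FPKM. Both overlapped, although the Cxcl2 mean went from 2.79 to 0.632 FPKM. Ccl22 overlapped as well, at 0.222, 1.65 and 0 FPKM in CONT, against 0.0446, 0 and 0.0662 FPKM over DM. Cxcl10 was the member whose groups did not overlap, at 7.41, 3.80 and 4.73 FPKM in CONT, against 0.581, 1.34 and 0.242 FPKM over DM. The ratio of group means was 21.4 for Lyz2 and 1.96 for Cxcl10, and a gene that rises less than Lyz2 tends to fall on this scale. The share of all genes without overlap on it was not computed, so nothing is read from this for Cxcl10.

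The genes whose pattern over the 6 libraries was most like that of each member differed from member to member. Likeness is Pearson's r on log2(FPKM + 1) over 6 libraries among 6788 protein coding genes, a description in which all genes share the libraries and the difference between groups. Ccl9 was closest to Tyrobp, a signalling adaptor of myeloid and natural killer cells (r = 0.998), and to the secreted protease inhibitor Slpi (0.998). Ccl6 was closest to Lst1, a leukocyte transmembrane gene (0.997), and Scpep1, a serine carboxypeptidase (0.996). Ccl3 was closest to Klrg1, an inhibitory receptor of effector lymphocytes (0.997), and Fam204a (0.993). Klrg1 was at 2.82, 2.80 and 3.61 FPKM across CONT, against 8.78, 10.7 and 12.5 FPKM across DM, the order of libraries within DM that Ccl3 had.

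Ccl4 was closest to Ugp2, an enzyme of UDP-glucose synthesis (r = 0.994), and Ccdc69 (0.991), and Cxcl2 to Dnttip1 (0.996) and the lysosomal protease gene Lgmn (0.989). Cxcl10 was closest to the checkpoint receptor gene Ctla4 (0.976) and to Casp4, an inflammatory caspase (0.959). Over 0.95 there were 82 genes for Ccl9, 81 for Ccl6, 44 for Ccl3, 20 for Ccl4, 16 for Cxcl2 and 3 for Cxcl10, so a high r is common for the members with the largest group difference.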

How the data were processed

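Total RNA of splenic CD4+ T cells was extracted with Trizol and sequenced after standard Illumina preparation, per the labels' protocols. The submitters' processing notes name GRCm38, cutadapt 1.9 and FastQC; the aligner and quantifier were not given in the sources used here. Per gene, the authors deposited FPKM for 28945 genes in 6 libraries, although the table is titled as counts, together with a p-value and q-value, a ratio of group means (fold change) and its log2 from a test of their own that is not named. Values are not whole and the depth in reads is unknown, which leaves no counting interval; relative depth is a rough estimate from steps of FPKM times length in 15403 single-transcript genes, on which 17.9% to 20.2% of low values fell within 0.02 of a whole step.

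Differences were fitted on log2(FPKM + 1) by limma 3.58.1 under R 4.3.3 (trended, robust prior variance; no covariate) over the 13106 genes with a mean of at least 1 FPKM in either group, with Benjamini-Hochberg adjustment over all of them. Fold changes on this scale understate low genes. The fit was tested on simulated data. The 7 members, the 15 gene lists and the tests were chosen with earlier results of these data known. Named genes are the members, the receptors of the members, called genes and the most abundant genes of each list, and the 2 genes most like each member with at least 5 FPKM in a group; neighbours and Lyz2 as a reference were added after their values were seen. Coordinates are 1-based from GENCODE M21 (GRCm38), which matched 99.7% of genes. Replicate numbers do not pair the libraries in the labels. Alternatives were other scalings, pseudocount 0.1, no filter, no trend, a replicate block and leaving out each library. Figures used matplotlib 3.10.9. Results for some genes are not reported here.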

Additional observations from a re-analysis of the deposited data

How the results depend on the processing

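The count of genes called was 199 and became 28 with no filter on low values, and 24 to 192 with 1 library left out (87 without CONT replicate 3, 24 without DM replicate 1, 67 without DM replicate 3); these fits have more genes or fewer samples. Of other ligands 0 were called in every setting. The receptor count of 1 was 2 with pseudocount 0.1 or the replicate block, 0 with no filter, and 0 to 2 with a library left out (0 without CONT replicate 3, DM replicate 1 or DM replicate 3). With pseudocount 0.1, which weighs low values more, the members' log2 differences were 3.50 for Ccl3, 3.11 for Ccl4, 4.41 for Ccl6, 3.55 for Ccl9, 2.05 for Cxcl2, 0.53 for Ccl22 and 0.95 for Cxcl10; the last was 0.38 with total scaling, which moved the median over all genes to -0.31. Ccl22 ran from -0.044 to 0.28 with a library left out, the lowest without DM replicate 3.

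Signs changed with total scaling for Cxcr4 (-0.19), Dnttip1 (-0.10), Nfkbia (-0.073) and Tmem123 (-0.051), and for Cxcr5 with median-of-ratios scaling (0.025). With 1 library left out the log2 difference crossed 0 for Ccl5 (-0.027 to 0.90), Cxcr5 (-0.23 to 0.33), Cxcr6 (-0.71 to 0.18), Irf1 (-0.26 to 0.067), Nfkbia (-0.048 to 0.66), Tnfaip3 (-0.25 to 1.10) and Xcl1 (-0.28 to 0.73). The replicate block left 3 members past the threshold (2.62 for Ccl3, as in the fit without it) and gave 204 calls over all genes; same-numbered libraries deviated with correlations of -0.36, -0.38 and -0.20, so the numbers were not taken as pairs. The cause of these changes was not tested.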
